A study of Gallus gallus with 10 samples.

Results

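Amino acids cross membranes only through carrier proteins, and vertebrates spread this work over several families of solute carrier (SLC) genes. The genes described here are those of the families SLC1, SLC3, SLC6, SLC7, SLC36, SLC38 and SLC43 in the choroid of the chick, a vascular and pigmented tissue behind the retina. They were matched by gene name, with earlier results of these data known and SLC7A11 left out, and 45 of the 24355 genes in the deposited table matched. One match, SLC7A6OS, is named for lying opposite SLC7A6 and is not a transporter, which leaves 44 transporter genes. Of the 45 genes, 22 (21 of them transporters) reached 1 FPKM (fragments scaled to transcript length and to the total of the library) in at least 5 of 10 libraries and were tested, and 23 are given as low.

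The libraries came from whole-tissue homogenates of choroids from normal chicks, strain Domesticus, at 15 days after hatching, and poly(A)-selected RNA was sequenced. In 5 of them the choroids had been kept with PAPA-NONOate, a small molecule that releases nitric oxide, at 1.5 mM for 24 hours at 37 °C, and 5 were controls without it. The labels give the incubation text of the treated choroids for controls too, and mark every treated sample R and every control L without saying what the letters stand for, so whatever they mark cannot be told apart from the treatment. Whether the replicates are separate animals is not labelled, and p-values cover only the variation among these libraries, which may be technical. By its title the study examines nitric oxide and gene expression in the choroid.

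The families divide the work by substrate, driving force and membrane. SLC1 carriers take up glutamate and aspartate, or exchange small neutral amino acids. SLC6 carriers use sodium and chloride to take up neurotransmitters, osmolytes and glycine, and SLC38 carriers use sodium to load cells with glutamine, alanine and other small neutral amino acids. Light chains of SLC7 pair with a heavy chain of SLC3 and exchange large amino acids across the cell membrane, the cationic branch of SLC7 carries arginine and lysine, SLC36 carriers work with protons, and SLC43 carriers move large neutral amino acids along their gradient. Lysosomes have carriers of their own, and some of these report amino acid supply to the kinase complex mTORC1. In vascular tissue such as choroid, arginine carriers supply the substrate of nitric oxide synthases.

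FPKM carry no absolute depth. From the steps between low values, the relative depth of the libraries was 0.657 to 0.914 with PAPA-NONOate and 0.664 and above in controls, relative to control replicate 2 at 1. Endothelial markers were present throughout (8 of 8 found were tested, CDH5 and PECAM1 among them). Of the markers of retinal pigment epithelium RPE65 and RLBP1 stayed under 1 FPKM in every library. The median log2 fold change (PAPA-NONOate minus control) of all 11357 genes tested was -0.18 as deposited, so a change of that size is shared by the typical gene. Fold changes use the deposited values as log2(FPKM + 0.5), a scale that makes changes of weakly expressed genes look smaller than they are.

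After PAPA-NONOate 3 transporter genes fell and none rose in limma, at a Benjamini-Hochberg adjusted p of 0.05. SLC7A14 fell most, with a mean FPKM 7.40 times lower than in controls, and SLC38A6 and SLC38A1, of the SLC38 family, fell less. The other 19 of the 22 tested genes did not pass, among them the genes for the taurine and glycine carriers, SLC6A6 and SLC6A9, whose means were higher with PAPA-NONOate. Of the 21 tested transporters 8 had a fold change above 0, beside 25.9% of all tested genes, and their median was -0.23. The 3 calls are 13.6% of the 22 genes, where 9.34% of all tested genes were called, 1.93% higher and 7.41% lower. So small an excess over the background is not a result about these families. At an unadjusted p under 0.05 there were 3 genes higher and 5 lower, 8 of 22, against 28.1% of all tested genes. In bulk tissue, fewer cells that express a gene and less of its RNA per cell cannot be told apart.

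The split of the calls moved with the scaling of the libraries. After median-ratio scaling, which sets the typical gene equal between libraries, 3 of the 22 genes rose (SLC6A9, SLC6A6 and SLC38A2) and 2 fell (SLC7A14 and SLC38A6), beside 6.96% and 6.6% of all tested genes. After quantile normalization 3 rose (SLC6A9, SLC6A6 and SLC6A4) and the same 2 fell, beside 6.45% and 5.99%. Leaving out 1 library also moved the count of 3. There were 5 calls when PAPA-NONOate replicate 5 was left out, and 1 (SLC7A14) when treated replicate 8 or control replicate 2 or 3 was. Over all genes the count of 1061 became 1813 without PAPA-NONOate replicate 5. With treated replicate 3 left out it was 693, and with control replicate 2, 3, 4 or 8 left out 604, 707, 684 and 689.

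**Figure D1:**
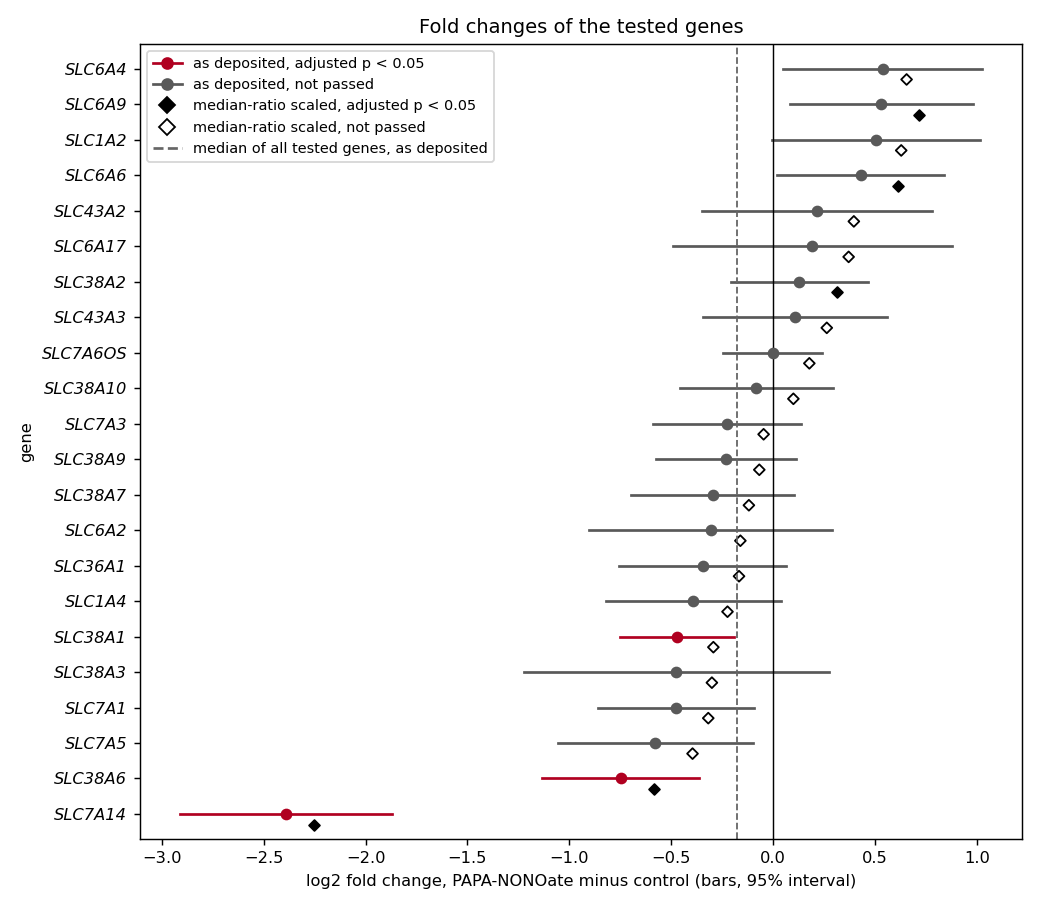
Log2 fold change, PAPA-NONOate minus control, of the 22 tested genes (circles as deposited, with 95% intervals, red where the adjusted p is under 0.05; diamonds after median-ratio scaling, filled where called). SLC7A14 stands apart at -2.39, and all other genes lie between -0.75 and 0.54; the dashed line is the median of all tested genes, -0.18.

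Among the cationic and orphan genes of SLC7, orphan meaning without a settled substrate, stood the gene with the largest change. SLC7A14 (ENSGALG00000009349) encodes a protein of lysosomal membranes, and mutations of the human gene are linked to an inherited degeneration of the retina. It was at 0.530, 0.774, 1.33, 1.55 and 0.859 FPKM in the choroids with PAPA-NONOate (replicates 2, 3, 4, 5 and 8), against 12.0, 6.76, 6.82, 6.37 and 5.30 FPKM in controls. The groups did not overlap: the highest treated library was below every control, and control replicate 2 stood well above the other controls. The means were 1.01 ± 0.418 with PAPA-NONOate and 7.46 ± 2.63 FPKM in controls (SD, n = 5 each). The log2 fold change was -2.39 in limma (SE 0.24, 95% interval -2.91 to -1.87, adjusted p = 0.000208), the 19th largest fall of all genes tested. SLC7A14 passed the filter on low values mainly through its controls, since only 2 treated libraries reached 1 FPKM against 5 controls. With treated values this near the pseudocount the size depends on it, and the log2 fold change was -2.80 with a pseudocount of 0.1 FPKM and -2.05 with 1 FPKM. It was called under all 20 other settings tried and remained at -2.21 without control replicate 2 (adjusted p = 0.000638 in limma). The setting with the filter at 5 FPKM kept SLC7A14 through its controls alone, so that call adds no support. Of the 22 genes 2 (SLC7A14 and SLC38A6) had every treated library below every control and 0 had every one above, where 7.48% and 1.84% of all tested genes did.

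Some markers of several cell types fell as well, those of macrophages, fibroblasts and nerve fibres (NEFL) among them. Every list of cell type markers except those of melanocytes and glia held a marker called lower. Smooth muscle and pericyte markers had a median log2 fold change of 0.07, with 1 of 8 tested called higher and 1 lower. Erythroid and thrombocyte markers had 0.63, with 1 of 6 higher and 1 lower. Glial markers had 0.06 (0 of 7 called, with 2 higher and 1 lower at an unadjusted p under 0.05 in limma). Endothelial markers had -0.10 (0 of 8 called higher, 1 lower). Summed over the 11 neuron and photoreceptor markers found, levels lay at 15.6 to 26.2 FPKM with PAPA-NONOate and 24.2 to 42.4 FPKM in controls. NEFL made up a large part of this sum, so the sum does not speak for the other markers. NEFL, a neurofilament subunit of axons, was at 8.45 ± 2.96 with PAPA-NONOate and 21.1 ± 6.66 FPKM in controls (SD, n = 5 each; log2 fold change -1.27, adjusted p = 0.00800). NEFL was the one of 6 tested markers that passed, and the median log2 fold change of the 6 was -0.33. At an unadjusted p under 0.05 in limma 0 of them were higher and 3 lower. SNAP25 had -0.72, NEFM -0.66 and SYT1 -0.01, and the other tested markers are not named here. PDE6H was listed at 0 everywhere. Summed macrophage markers lay at 199.9 to 520.4 FPKM with PAPA-NONOate and 536 to 909 FPKM in controls. Of 10 tested macrophage markers 5 were called lower and 0 higher in limma, with a median log2 fold change of -0.90. Lower at an unadjusted p under 0.05 were 7 of these 10, and 0 were higher. Summed fibroblast markers lay at 294 to 1070 against 977 to 1938 FPKM. Of 7 tested fibroblast markers 3 were called lower and 0 higher, with a median of -1.22, and all 7 were lower at an unadjusted p under 0.05 in limma. Over all tested genes 1.93% were called higher and 7.41% lower, and 28.1% had an unadjusted p under 0.05 in either direction. Summed melanocyte markers lay at 40.0 to 215 FPKM with PAPA-NONOate and 53.1 to 498 FPKM in controls, with control replicate 2 highest, a median log2 fold change of -1.16 and 0 of 7 tested genes called in limma (0 at an unadjusted p under 0.05). Summed markers of retinal pigment epithelium lay at 3.74 to 4.604 FPKM with PAPA-NONOate and 5.26 to 6.02 FPKM in controls. These sums are near the floor, since RPE65, RLBP1, TTR and RGR stayed under 1 FPKM in every library. Of the 2 tested genes among them 1 was called lower. The part of these cells in the fall of SLC7A14 was not tested.

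The other tested genes of the cationic and orphan group, SLC7A3 and SLC7A1, did not pass. SLC7A3, an arginine and lysine carrier, was the most abundant of the group, with 11.0, 15.7, 19.0, 21.0 and 16.6 FPKM with PAPA-NONOate, against 18.2, 18.6, 22.0, 15.6 and 21.9 FPKM in controls. The groups overlapped, with PAPA-NONOate replicate 2 lowest, and the log2 fold change was -0.23 (95% interval -0.59 to 0.14, adjusted p = 0.40). SLC7A1, the widely expressed arginine carrier of many cell types, averaged 2.43 ± 0.599 with PAPA-NONOate and 3.55 ± 0.627 FPKM in controls (SD, n = 5 each). Its log2 fold change was -0.48 (adjusted p = 0.106), and it passed without PAPA-NONOate replicate 5 (adjusted p = 0.0432). SLC7A2 was low, at 0.432 FPKM or less in every library, and so was SLC7A4, at up to 1.11 FPKM with PAPA-NONOate and 2.05 FPKM in controls.

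Of the 3 light chains matched by name (SLC7A5, SLC7A9 and SLC7A10) only SLC7A5 passed the filter. Other light chains had no match by name or, as SLC7A11, were left out, so their levels are not given here. SLC7A5 (ENSGALG00000005845), a sodium-independent exchanger of leucine and other large neutral amino acids, was at 18.9, 29.3, 38.5, 45.6 and 21.1 FPKM with PAPA-NONOate, against 52.0, 45.7, 44.7, 35.7 and 41.4 FPKM in controls. Replicates 2, 3 and 8 with PAPA-NONOate were below every control, and replicates 4 and 5 lay among the controls. The means were 30.7 ± 11.3 with PAPA-NONOate and 43.9 ± 5.99 FPKM in controls (SD, n = 5 each), and limma put the log2 fold change at -0.58 (adjusted p = 0.112, SE 0.22). The gene passed without PAPA-NONOate replicate 5, at -0.74 (adjusted p = 0.0270), and did not after either scaling. The heavy chain that SLC7A5 pairs with, SLC3A2, was not among the genes matched by name. SLC3A1, the heavy chain of cystine uptake in kidney and gut, reached 0.579 FPKM at most. SLC7A10 was low, at 0.473 to 1.20 FPKM with PAPA-NONOate and 0.367 to 0.573 FPKM in controls, and SLC7A9, the light chain that pairs with SLC3A1, reached 0.187 FPKM.

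**Figure D2:**
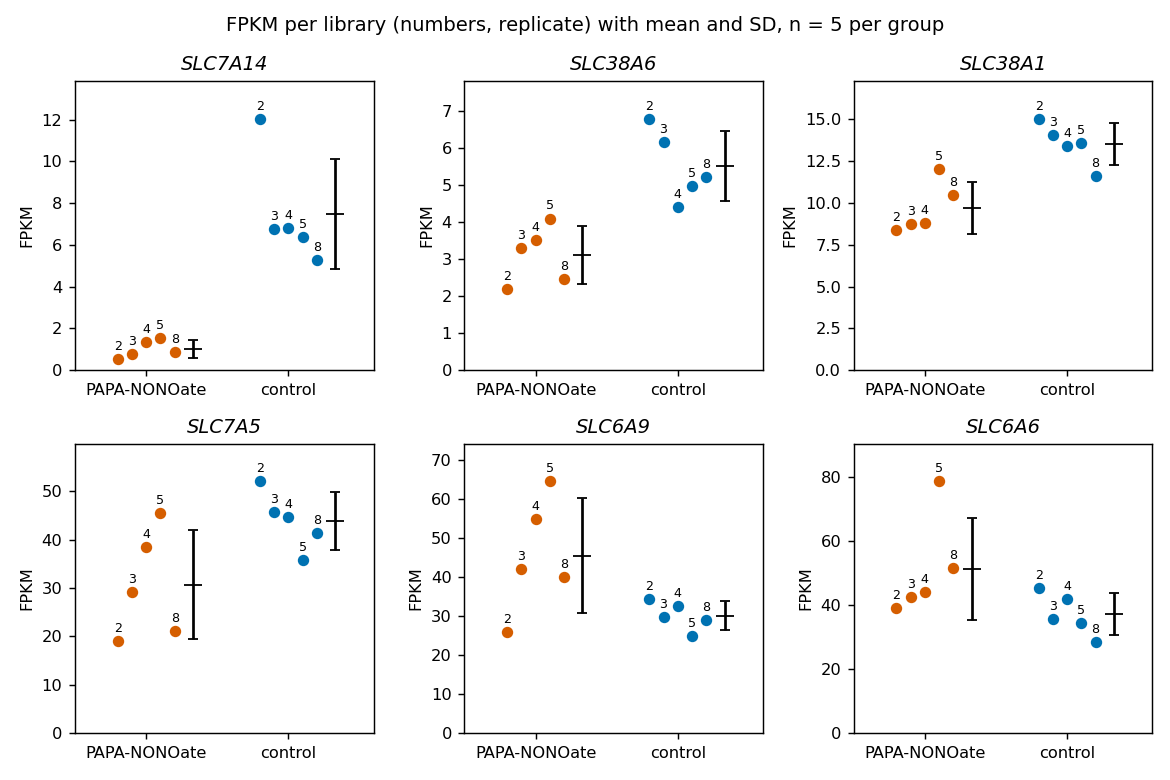
FPKM of 6 transporter genes in each library (numbers are replicates), PAPA-NONOate left and control right, with mean and SD (n = 5 each). The groups do not overlap for SLC7A14 and SLC38A6; SLC7A5 and SLC6A9 spread more widely with PAPA-NONOate (SD 11.3 and 14.8) than in controls (5.99 and 3.65).

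The SLC38 family held the most abundant transporter of all and 2 of the 3 calls: of 7 tested members 0 rose, 2 fell and 5 did not pass (none was higher at an unadjusted p under 0.05), beside 1.93% higher and 7.41% lower over all tested genes. Counts this small are no result about the family. SLC38A2 (ENSGALG00000008497), a sodium-coupled carrier of small neutral amino acids that mammalian cells raise when amino acids run short, was at 111, 137, 171, 204 and 145 FPKM with PAPA-NONOate. In controls it was at 154, 124, 138, 129 and 145 FPKM. It made up 31.0 to 36.4% of the summed FPKM of the 44 transporter genes with PAPA-NONOate and 29.0 to 33.7% in controls. The groups overlapped, and its log2 fold change was 0.13 (95% interval -0.21 to 0.47, adjusted p = 0.617). After median-ratio scaling SLC38A2 passed, and its log2 fold change was 0.31 (adjusted p = 0.0342). On that scale the treated libraries lay at 146 to 187 and the controls at 121 to 135. SLC38A2 did not pass after quantile normalization (0.25, adjusted p = 0.0822 in limma), and median-ratio scaling was the only 1 of 20 alternatives that called it.

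SLC38A6 (ENSGALG00000011893), a family member whose substrates are less well established, fell. It was at 2.20, 3.30, 3.50, 4.09 and 2.46 FPKM with PAPA-NONOate, against 6.78, 6.15, 4.41, 4.98 and 5.21 FPKM in controls. Every treated library was below every control. The log2 fold change was -0.75 (SE 0.18, adjusted p = 0.0217 in limma), and it kept its call after median-ratio scaling (-0.58, adjusted p = 0.0195). The call did not hold when genes were tested unfiltered, nor when PAPA-NONOate replicate 8 or control replicate 2 or 3 was left out (adjusted p up to 0.0597).

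SLC38A1 (ENSGALG00000009698), which loads neurons and other cells with glutamine, fell as deposited. It was at 8.41, 8.71, 8.78, 12.0 and 10.5 FPKM with PAPA-NONOate, against 15.0, 14.1, 13.4, 13.6 and 11.6 FPKM in controls. PAPA-NONOate replicate 5 lay above control replicate 8, and the other treated libraries were below all controls. The log2 fold change was -0.47 (SE 0.13, adjusted p = 0.0397 in limma) as deposited and -0.29 after median-ratio scaling, where the call was lost (adjusted p = 0.0878). The call also ended after quantile normalization (adjusted p = 0.108), without the filter, and when any library but treated replicate 5 or control replicate 8 was left out (adjusted p of these leave-outs up to 0.0980).

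The other tested members of this family did not pass as deposited. SLC38A3, a glutamine carrier of liver, kidney and glia, was at 3.99, 20.1, 13.2, 16.3 and 16.0 FPKM with PAPA-NONOate, against 12.2, 14.9, 21.5, 22.5 and 18.1 FPKM in controls. PAPA-NONOate replicate 2 was far below all other libraries, also after median-ratio scaling (5.28, against 10.3 to 23.4 in the other 9). The log2 fold change was -0.47 (95% interval -1.22 to 0.28, adjusted p = 0.390), and -0.09 without that library. SLC38A10, of intracellular membranes, was at 22.9, 33.8, 28.7, 40.1 and 27.4 FPKM with PAPA-NONOate, against 44.1, 33.8, 29.3, 27.9 and 26.8 FPKM in controls. Its log2 fold change of -0.08 (adjusted p = 0.785) turned to 0.10 after median-ratio scaling. The lysosomal glutamine carrier gene SLC38A7 had -0.30 (adjusted p = 0.313). SLC38A9, a lysosomal carrier and arginine sensor upstream of mTORC1, had -0.23 (adjusted p = 0.363) as deposited and 0.03 after quantile normalization.

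In the SLC6 family 2 abundant transporters, SLC6A9 and SLC6A6, had higher means with PAPA-NONOate. As deposited 0 of 5 tested members passed in limma, beside 1.93% of all tested genes called higher and 7.41% lower. At an unadjusted p under 0.05 in limma 3 were higher and 0 lower, beside 28.1% of all tested genes in either direction. Counts this small are no result about the family. SLC6A9 (ENSGALG00000010098), the glycine carrier that clears glycine around synapses and supplies many other cells, was at 26.0, 42.1, 55.04, 64.6 and 39.9 FPKM with PAPA-NONOate, against 34.3, 29.9, 32.6, 24.8 and 29.0 FPKM in controls. All treated libraries except replicate 2 were above every control. The means were 45.5 ± 14.8 with PAPA-NONOate and 30.1 ± 3.65 FPKM in controls (SD, n = 5 each), and limma put the log2 fold change at 0.53 (adjusted p = 0.117, SE 0.21). SLC6A9 passed after median-ratio scaling at 0.72 (adjusted p = 0.00766), after quantile normalization at 0.65 (adjusted p = 0.0131), with weighted libraries, and at 0.72 when treated replicate 2 was left out (adjusted p = 0.0153). On the median-ratio scale the treated libraries lay at 34.4 to 59.1 and the controls at 25.7 to 30.1. Summed markers of glia, which use this carrier in brain, lay at 62.2 to 154 FPKM with PAPA-NONOate and 66.4 to 94.4 FPKM in controls. In limma 0 of 7 tested glial markers were called, with 2 higher and 1 lower at an unadjusted p under 0.05. The part of glia was not tested.

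SLC6A6 (ENSGALG00000006425), the carrier of taurine, an osmolyte abundant in eye tissues, was at 39.1, 42.6, 44.2, 78.6 and 51.6 FPKM with PAPA-NONOate. In controls it was at 45.2, 35.5, 42.0, 34.4 and 28.6 FPKM. PAPA-NONOate replicate 5 was the highest of all, and control replicate 2 lay above 3 treated libraries. The log2 fold change was 0.43 (SE 0.19, adjusted p = 0.159 in limma) as deposited and 0.61 after median-ratio scaling, where the gene passed (adjusted p = 0.0199) and the groups lay at 45.2 to 71.95 with PAPA-NONOate and 25.3 to 38.8 in controls. SLC6A17, a synaptic vesicle carrier of neutral amino acids, was at 7.08, 22.9, 15.6, 26.4 and 12.6 FPKM with PAPA-NONOate, against 20.7, 15.8, 10.4, 9.20 and 13.5 FPKM in controls. Both groups were widely spread, and the log2 fold change was 0.19 (95% interval -0.49 to 0.88, adjusted p = 0.720).

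Monoamine carriers also belong to this family by name, though they carry no amino acids. The serotonin carrier gene SLC6A4 averaged 1.28 ± 0.381 with PAPA-NONOate and 0.713 ± 0.220 FPKM in controls (SD, n = 5 each), a log2 fold change of 0.54 (adjusted p = 0.142). SLC6A4 passed after quantile normalization (adjusted p = 0.0445) and not after median-ratio scaling (adjusted p = 0.0750). The noradrenaline carrier gene SLC6A2, a marker of sympathetic nerve cells, averaged 2.49 ± 1.12 with PAPA-NONOate and 3.05 ± 0.933 FPKM in controls (SD, n = 5 each; log2 fold change -0.31, adjusted p = 0.493). SLC6A4 reached 1 FPKM in 4 treated libraries and 1 control, so it passed the filter mainly through the group where it was high.

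Equilibrative and proton-coupled carriers did not pass as deposited either. SLC43A2, which moves branched-chain and aromatic amino acids along their gradient, was at 16.4, 40.7, 35.8, 52.6 and 30.4 FPKM with PAPA-NONOate, against 19.8, 28.8, 31.4, 35.9 and 27.97 FPKM in controls. Replicates 3 and 5 with PAPA-NONOate were above all controls and replicate 2 was below them. The log2 fold change of SLC43A2 was 0.22 (95% interval -0.35 to 0.78, adjusted p = 0.617 in limma). It passed only with the replicate number as a block and quantile normalization together, at 0.35 (adjusted p = 0.0230 in limma). SLC43A3, a family member known to carry purine bases instead, averaged 3.90 ± 1.11 with PAPA-NONOate and 3.51 ± 0.679 FPKM in controls (SD, n = 5 each; log2 fold change 0.11, adjusted p = 0.769). SLC36A1, a proton-coupled carrier of lysosomes and the gut surface, was at 7.89, 10.6, 12.8, 18.5 and 12.2 FPKM with PAPA-NONOate, against 17.4, 13.2, 17.8, 14.3 and 14.5 FPKM in controls. All treated libraries except replicate 5 were below every control, and the log2 fold change was -0.34 (SE 0.19, adjusted p = 0.254).

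Glutamate carriers were scarce. SLC1A2, the main glutamate carrier of astrocytes in brain, averaged 1.34 ± 0.407 with PAPA-NONOate and 0.799 ± 0.288 FPKM in controls (SD, n = 5 each; log2 fold change 0.50, adjusted p = 0.181). SLC1A4, an exchanger of alanine, serine and cysteine, was the most abundant of SLC1. It averaged 4.52 ± 1.18 with PAPA-NONOate and 6.09 ± 1.53 FPKM in controls (SD, n = 5 each; log2 fold change -0.39, adjusted p = 0.216). SLC1A1, SLC1A3, SLC1A6 and SLC1A7 were low, with SLC1A6 highest at 0.850 FPKM. SLC7A6OS, the match that is no transporter, varied little, at 13.3 ± 0.813 with PAPA-NONOate and 13.4 ± 1.45 FPKM in controls (SD, n = 5 each; log2 fold change -0.00, adjusted p = 0.995), and 0.18 after median-ratio scaling.

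**Figure D3:**
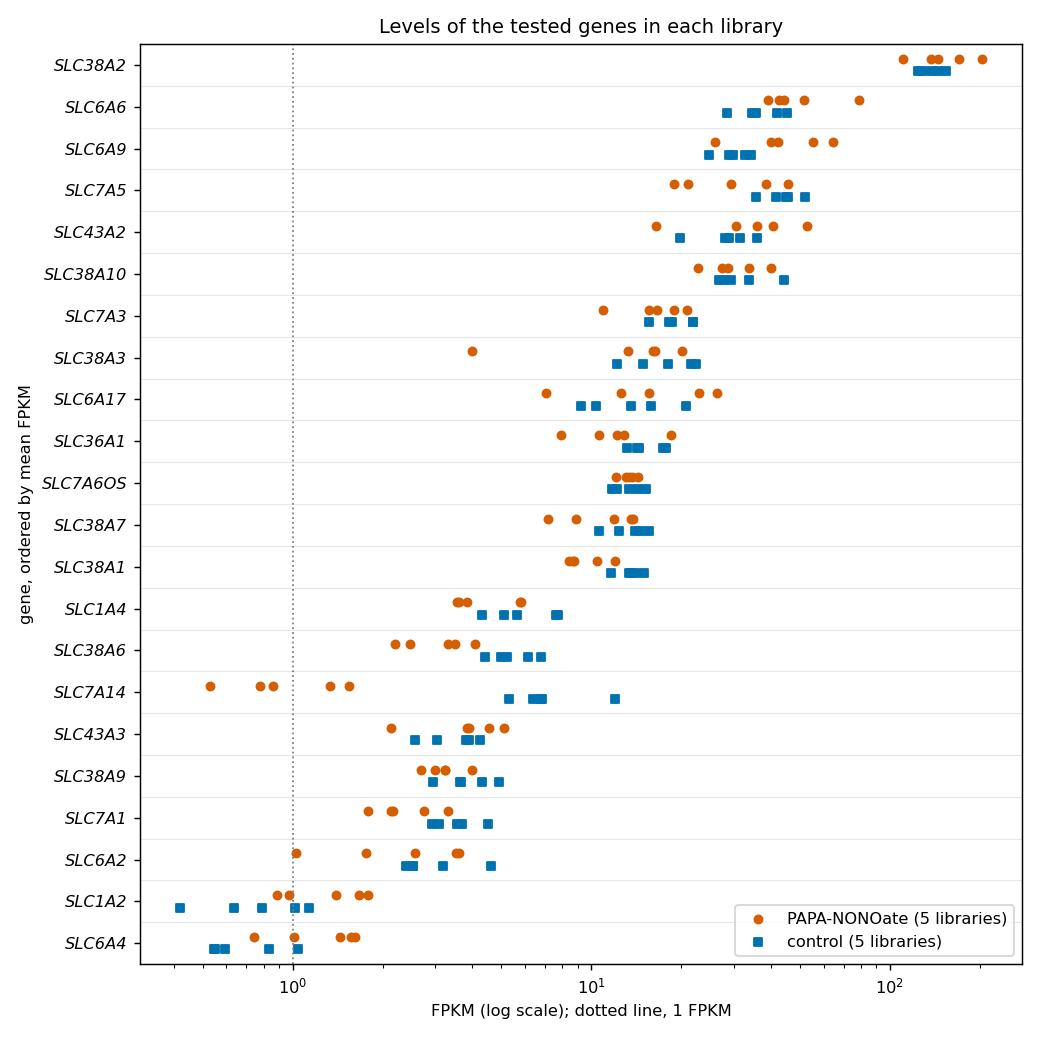
FPKM (log axis) of the 22 tested genes in each library, ordered by mean, with PAPA-NONOate (circles) above control (squares) in each row. SLC38A2 is highest in all 10 libraries, at 111 to 204 FPKM with PAPA-NONOate and 124 to 154 FPKM in controls, and the treated values of SLC7A14 lie around 1 FPKM.

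By mean level over all libraries, SLC38A2 came first at 146 FPKM and was followed by SLC6A6 at 44.2, SLC6A9 at 37.8, SLC7A5 at 37.3, SLC43A2 at 32.0 and SLC38A10 at 31.5 FPKM. Below SLC38A2, neighbours in this order differed by less than the spread of each over the libraries. The summed FPKM of the 44 transporter genes ran from 305 to 628 with PAPA-NONOate and from 410.2 to 501 in controls, so the treated libraries spread more widely on both sides. Of the 21 tested transporters, 16 were lowest among treated libraries in PAPA-NONOate replicate 2, and 15 were highest in PAPA-NONOate replicate 5. PAPA-NONOate replicates 2 and 5 held these places for 64.4% and 47.4% of all tested genes. These 2 libraries had the lowest and the highest size factor of the treated group, 0.756 and 1.09.

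**Figure D4:**
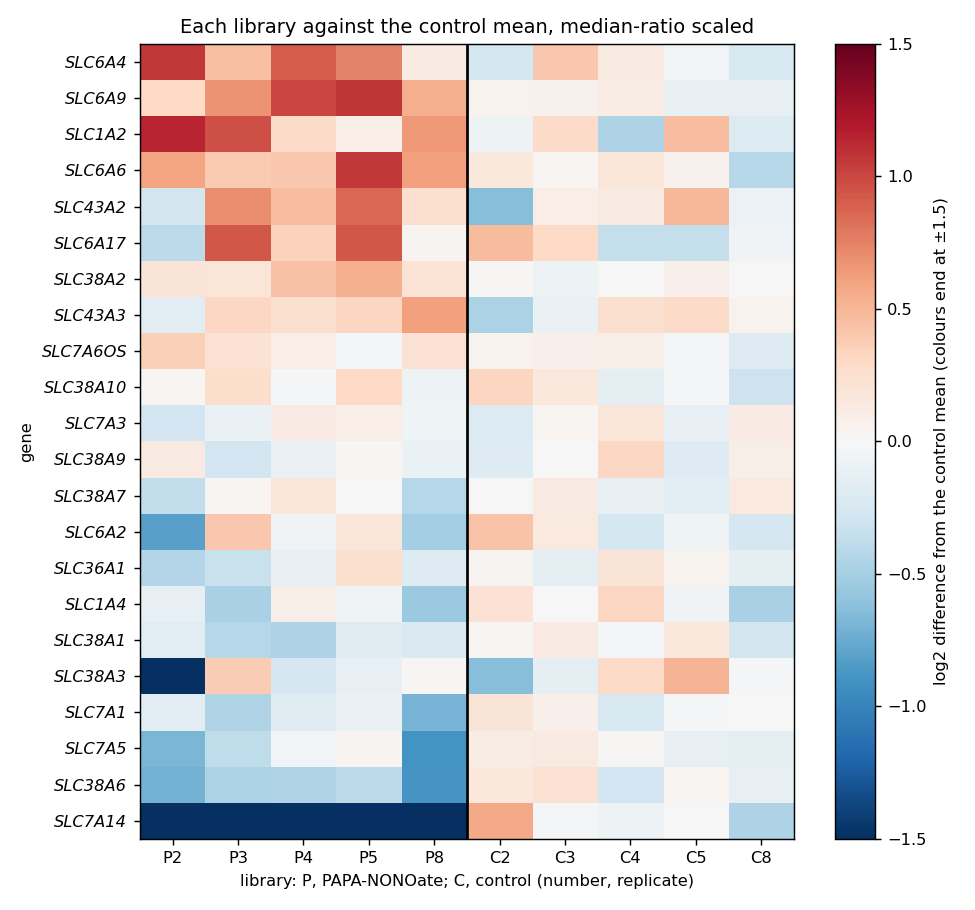
Log2 difference of each library from the control mean after median-ratio scaling, for the 22 tested genes ordered by fold change as deposited (P, PAPA-NONOate; C, control; number, replicate). SLC7A14 is below the control mean in all 5 treated libraries, SLC6A9 and SLC6A6 are above it in all 5, and SLC38A3 is far below it in PAPA-NONOate replicate 2.

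The remaining 23 genes were low. SLC6A7, SLC6A20 and SLC38A8 were listed at 0 in every library, and 16 others had their highest value between 0.0122 and 0.860 FPKM. In this range were the GABA carrier genes SLC6A11 and SLC6A13, the betaine carrier SLC6A12, the glycine carrier of inhibitory neurons SLC6A5 and the epithelial carriers SLC6A18 and SLC6A19. The other 4 reached 1 FPKM in some library: SLC7A4, SLC7A10, SLC6A15 and SLC38A4. Just inside the filter stood SLC1A2 and SLC6A4, each at 1 FPKM or more in 5 libraries, and just outside it SLC7A4, SLC6A15 and SLC38A4, in 3 each. SLC38A4, a carrier of neutral and cationic amino acids best known from liver, was at 0.309, 0.410, 0.0139, 0.419 and 0.0172 FPKM with PAPA-NONOate, against 1.26, 0.958, 0.395, 1.11 and 1.003 FPKM in controls. Only control replicate 4 lay within the treated range. Tested without the filter, its log2 fold change was -0.99 (adjusted p = 0.0464 in limma). SLC6A15, a neuronal carrier of branched-chain amino acids and proline, was highest in replicate 2 of both groups, at 1.96 FPKM with PAPA-NONOate and 4.09 FPKM in the control, and reached at most 0.534 FPKM in the other treated libraries and 1.06 FPKM in the other controls.

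Genes around the carriers were counted in 6 lists of amino acid handling. Their counts stand beside 1.93% of all tested genes called higher and 7.41% lower as deposited, 6.96% and 6.6% after median-ratio scaling, and 28.1% with an unadjusted p under 0.05, and nothing particular to a list is read from them. Cells answer a shortage of amino acids through the kinase GCN2 (EIF2AK4) and the transcription factor ATF4, whose targets in mammals include SLC38A2, SLC7A5, SLC7A1 and the asparagine synthetase gene ASNS. The list counted here is wider than this response, since it also holds the related kinases EIF2AK1, EIF2AK2 and EIF2AK3. Of its 22 tested genes 4 rose, 2 fell and 16 did not pass, and over all settings tried 2 to 6 were called. ATF4 itself rose, at 1407 ± 166 with PAPA-NONOate and 950.0 ± 109 FPKM in controls (SD, n = 5 each; log2 fold change 0.57, SE 0.14, adjusted p = 0.0253). This call did not hold when genes were tested unfiltered, nor when replicate 3 or 4 of either group was left out (adjusted p up to 0.0986). ATF3, a related stress factor, had 0.61 (adjusted p = 0.0140) and EIF2AK2, a kinase of the same branch that interferon also raises, 0.62 (adjusted p = 0.0149). The other 3 calls, named after their values were seen, were the rise of STC2 (0.79) and the falls of DDIT4 (-1.41) and VLDLR (-0.64). With 1 library left out STC2 was called only without control replicate 2 and VLDLR only without PAPA-NONOate replicate 5, and DDIT4 lost its call without control replicate 4, 5 or 8 (highest adjusted p 0.0637). VLDLR also lost its call after either scaling, and all 3 lost it when genes were tested unfiltered. ASNS, chosen in the same way, was at 51.4 ± 4.21 with PAPA-NONOate and 59.5 ± 6.16 FPKM in controls (SD, n = 5 each; log2 fold change -0.21, adjusted p = 0.256). The list had a median log2 fold change of -0.04, beside -0.18 over all genes.

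Genes that report amino acid supply to mTORC1 mostly did not pass. The list counted here is wider, since it also holds parts of the complex, such as MTOR and RPTOR, and its targets, such as RPS6KB1. Of 33 tested genes 0 rose, 1 fell and 32 did not pass in limma (0 higher and 4 lower at an unadjusted p under 0.05), with a median log2 fold change of -0.10. Over all settings 0 to 4 were called. CASTOR1, the cytosolic arginine sensor, fell to 10.3 ± 3.74 FPKM with PAPA-NONOate, against 18.8 ± 4.27 FPKM in controls (SD, n = 5 each; log2 fold change -0.87, adjusted p = 0.0257). CASTOR1 did not pass when genes were tested unfiltered, nor when treated replicate 3 or control replicate 2, 4 or 8 was left out (highest adjusted p 0.0653). NPRL3 and WDR59, of the complexes that relay this signal, had -0.57 (adjusted p = 0.0580) and -0.42 (adjusted p = 0.130).

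Carriers of amino acids outside these families fell in 2 of 12 tested cases, and 0 rose (0 higher and 5 lower at an unadjusted p under 0.05 in limma), with a median log2 fold change of -0.30. Over all settings 0 to 4 of these carriers were called. SLC16A10, a facilitator of aromatic amino acids, fell to 1.51 ± 0.260 FPKM with PAPA-NONOate, against 2.98 ± 0.814 FPKM in controls (SD, n = 5 each; log2 fold change -0.77, adjusted p = 0.0252). It lost the call after either scaling, without the filter, and when treated replicate 3 or control replicate 2 or 5 was left out (adjusted p of these leave-outs up to 0.0666). SLC25A22, a mitochondrial glutamate carrier, had -0.56 (adjusted p = 0.0490), a call that each library left out ended except PAPA-NONOate replicate 5. The lysosomal exporter of cationic amino acids, PQLC2, had -0.56 (adjusted p = 0.0611).

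Enzymes that use or make amino acids showed calls in both directions. Of 27 tested genes of amino acid metabolism 1 rose, 2 fell and 24 did not pass, with a median log2 fold change of -0.06, and 1 to 6 were called over all settings. ODC1, which makes the polyamine precursor putrescine from ornithine, was at 66.1 ± 3.31 with PAPA-NONOate and 48.5 ± 3.06 FPKM in controls (SD, n = 5 each), without overlap, and its log2 fold change was 0.44 (adjusted p = 0.0163). This call ended when replicate 3 of either group was left out (adjusted p of these leave-outs up to 0.0509). It also ended with the replicate number as a block (adjusted p = 0.0706). AHCY, of the methionine cycle, had -0.91 (adjusted p = 0.0145), and SHMT1, which links serine and glycine to folate, -0.80 (adjusted p = 0.0355). The call of SHMT1 was lost after quantile normalization, without the filter, and when treated replicate 2, 3 or 4 or control replicate 2, 3, 4 or 8 was left out (adjusted p of these leave-outs up to 0.0915). Of 19 tRNA synthetases 0 rose, 1 (KARS, for lysine, -0.46, adjusted p = 0.0347) fell and 18 did not pass in limma (0 higher and 5 lower at an unadjusted p under 0.05), with a median of -0.18 and 0 to 3 called over all settings. KARS lost its call after either scaling and when treated replicate 3 or 4 or control replicate 2, 4 or 8 was left out. DARS (-0.38) and TARS (-0.40) did not pass as deposited. Both passed with library weights and without control replicate 5, and DARS also after quantile normalization (adjusted p = 0.0425 in limma) with or without the block. Of 10 genes of glutathione supply 0 rose and 1 fell in limma (0 higher and 2 lower at an unadjusted p under 0.05), the dipeptidase gene CNDP2 (-0.60, adjusted p = 0.0448), and their median was 0.05. Over all settings 0 to 3 of them were called. CNDP2 lost its call after median-ratio scaling, without the filter, and when any library but treated replicate 5 or control replicate 3 was left out (highest adjusted p 0.115). The aminopeptidase gene ANPEP had -0.99 (adjusted p = 0.116) and GCLC, of the enzyme that starts glutathione synthesis, 0.45 (adjusted p = 0.182).

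**Figure D5:**
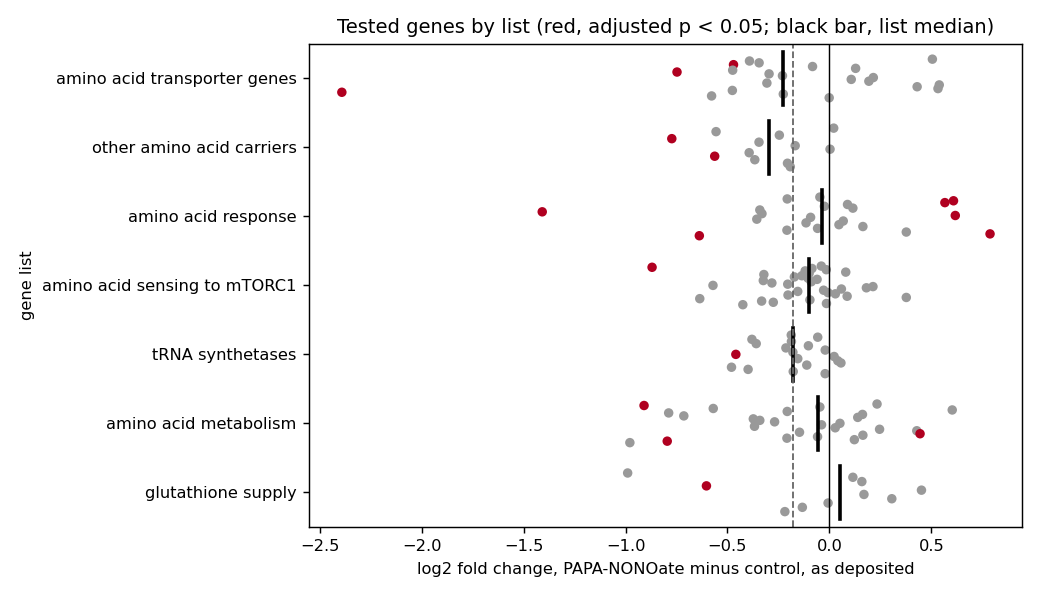
Log2 fold change as deposited, PAPA-NONOate minus control, of the tested genes of the transporter families and of 6 lists of amino acid handling (points; red, adjusted p under 0.05; black bar, list median; dashed line, median of all tested genes at -0.18). The list medians lie between -0.30 and 0.05, and SLC7A14 at -2.39 is the lowest point of all.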

How the data were processed

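The authors deposited one table of FPKM for 24355 chicken genes. They used SAMtools and Cufflinks on the build GRCg6a, per the submitters' processing notes. Tool versions, the aligner and how fragments of overlapping or near-identical genes were divided: not given in the sources used here. The value 999999999 (14 values, 10 genes) was treated as missing, and genes with a missing value were not tested. Groups and replicate numbers came from the sample titles. All genes at 1 FPKM or more in at least 5 libraries (11357) were fitted with limma 3.58.1 (R 4.3.3, mean-variance trend, 8 residual and 4.83 prior degrees of freedom) on log2(FPKM + 0.5), two-sided, with Benjamini-Hochberg adjustment over all of them and a threshold of 0.05. The procedure was tested on simulated data with independent noise and no shift between whole libraries, so that test does not bear on the choice of scaling.

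The genes, lists and tests were chosen with earlier results of these data known. Values in every library are given for called genes and for the 10 of highest mean, and from each list up to 3 genes with the smallest adjusted p are named. Alternatives were other pseudocounts and filters, median-ratio and quantile scaling, library weights, no trend, the replicate number as a block, and each library left out. Correlations between libraries of a group were 0.930 to 0.978. Positions and sequences of the genes were not used here, and not every low gene is reported by name here. Figures were drawn with matplotlib 3.10.9.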

Additional observations from a re-analysis of the deposited data

Results flagged for a closer look

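SLC7A14 stood at 12.0 FPKM in control replicate 2, and the gap to the next control library took 0.774 of the range of the controls, above the critical value of 0.71 for 5 samples. The other 4 controls lay at 5.30 to 6.82 FPKM. It was 1 of 44 groups of 5 libraries examined over the 22 tested genes, where chance flags about 1 in 20 groups, which makes 2.2 of 44. Without this library the log2 fold change was -2.21 (adjusted p = 0.000638 in limma).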

How the results depend on the processing

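The fall of SLC7A14 kept its call in all 20 alternatives, with log2 fold changes of -2.80 to -2.05 and limma adjusted p of 2.43e-05 to 0.00238. Among these, the filter at 5 FPKM was passed through the controls alone, so it adds no support. Called genes of the transporter families numbered 5 (3 higher) after median-ratio scaling and after quantile normalization, and 1 was higher with library weights. With 1 library left out the called genes numbered 1 to 5, those higher 0 to 1 and those lower 1 to 5. Over all genes 605 were called with the filter at 5 FPKM, 1807 with library weights, and 604 to 1813 with 1 library left out. Same-numbered libraries deviated together with correlations of 0.288, 0.303 and 0.186 in replicates 3, 4 and 8 but 0.00348 and -0.0229 in replicates 2 and 5, and not every library correlated best with its own number, so they were not taken as pairs. With the replicate block 1 gene, SLC7A14, was called. With the block and quantile normalization 1 was lower (SLC7A14) and 3 higher (SLC6A9, SLC6A6 and SLC43A2), with 1675 called over all genes. Of the list genes named as called, KARS, ODC1, SHMT1, SLC16A10, SLC25A22 and STC2 lost their calls with the replicate block. Small fold changes turned round. For SLC38A10 they were 0.10 after median-ratio scaling and 0.034 after quantile normalization with or without the block, and -0.19 to 0.033 with 1 library left out. For SLC38A9 it was 0.034 after quantile normalization with or without the block. For SLC7A6OS it was 0.18 after median-ratio scaling, 0.19 after quantile normalization with or without the block, and -0.045 to 0.045 with 1 library left out. Genes under the stricter filter, SLC38A6 among them, have no value there. Except where a filter changed the genes tested or fewer libraries were fitted, the cause was not tested. Depth limits the low genes, and no counting interval could be given.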

Other observations

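SLC6A15 and TUBB3, a tubulin gene of neurons named after its values were seen, were both highest in replicate 2 of each group. TUBB3 was at 4.88 FPKM in PAPA-NONOate replicate 2 and at 1.25 to 2.04 FPKM in the other treated libraries, and at 20.4 FPKM in control replicate 2 and 1.67 to 5.35 FPKM in the other controls. SLC6A15 was at 1.96 FPKM in PAPA-NONOate replicate 2 and 4.09 FPKM in control replicate 2. Summed melanocyte markers were also highest in replicate 2 of each group, at 215 FPKM with PAPA-NONOate, where the other treated libraries lay at 40.0 to 96.7 FPKM, and at 498 FPKM in the control, where the other controls lay at 53.1 to 189 FPKM. Summed neuron and photoreceptor markers were lowest of the treated libraries in PAPA-NONOate replicate 2, at 15.6 FPKM, and stood at 38.03 FPKM in control replicate 2, below control replicate 8 at 42.4 FPKM.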
